A study of Bos taurus with 18 samples.

Results

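Members of the *miR-10*, *miR-99/100* and *miR-125* families were followed in plasma from Japanese Black steers over the fattening period. They were chosen by name and are the 8 rows *bta-miR-10a*, *bta-miR-10b*, *bta-miR-99a-5p*, *bta-miR-99a-3p*, *bta-miR-99b*, *bta-miR-100*, *bta-miR-125a* and *bta-miR-125b* of the 1071 miRNAs in the deposited tables. Plasma of the same 3 steers, taken at about 20, 25 and 30 months of age, was split with a kit into exosomal (EX) RNA, carried in small vesicles released by cells, and free-circulating (FC) RNA, which the labels call non-exosomal. Each of the 9 plasma samples therefore gave 1 EX and 1 FC library, so that every group of a fraction and an age held 3 libraries, 1 per steer. No treatment or genotype separates the groups, all animals were raised under the same feeding system, and the EX and FC libraries of 1 number share their plasma. Each age was sampled once per steer, so age and the time of sampling cannot be told apart.

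The *miR-10* genes lie inside the HOX gene clusters of vertebrates. The *miR-99/100* and *miR-125* genes lie together with a *let-7* gene in short clusters, and *miR-125* is the vertebrate relative of *lin-4*. A miRNA finds its target mRNAs mainly by its seed, bases 2 to 8 from the 5′ end, so members with 1 seed are counted as a family. In mammals *miR-10* is known from posterior tissues and from endothelium, *miR-99a* and *miR-100* are known to repress MTOR, and *miR-125* is known from blood stem and progenitor cells.

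The mature sequences below are those of the deposited count table, 5′ to 3′, with the seed in capitals. They are shown because 4 seeds divide the members, and because members of a family differ so little that reads can be shared between them.

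bta-miR-10a: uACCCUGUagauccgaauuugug

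bta-miR-10b: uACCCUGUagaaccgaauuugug

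bta-miR-99a-5p: aACCCGUAgauccgaucuugu

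bta-miR-100: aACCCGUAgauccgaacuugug

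bta-miR-99b: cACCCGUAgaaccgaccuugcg

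bta-miR-125a: uCCCUGAGacccuuuaaccugug

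bta-miR-125b: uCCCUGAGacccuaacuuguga

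bta-miR-99a-3p: cAAGCUCGcuucuaugggu

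With positions counted from 1 at the 5′ end and the base of the first named miRNA given first, *bta-miR-10a* and *bta-miR-10b* differ by U12A alone. *bta-miR-99a-5p* and *bta-miR-100* differ by U16A alone over the 21 positions they share, while *bta-miR-99b* differs from *bta-miR-99a-5p* by A1C, U11A, U16C and U21C. *bta-miR-125a* and *bta-miR-125b* are the same over the first 13 positions and differ at 7 of the 22 compared. The *miR-10* and *miR-99/100* seeds begin with the same bases, after which *miR-10* has 1 more base, the U at position 6. With this U removed, *bta-miR-10a* differs from *bta-miR-100* by U1A and U17C only. The *miR-125* seed is also that of *bta-miR-670*, and the seed of *bta-miR-99a-3p*, the opposite strand of the *miR-99a* hairpin, is held by 0 other miRNAs of the table. In the RefSeq gene table for ARS-UCD2.0, MIR10A lies within HOXB3 and MIR10B within HOXD4. MIR99A stands beside MIRLET7C and MIR125B-2, MIR100 beside MIRLET7A-2 and MIR125B-1, and MIR99B beside MIRLET7E and MIR125A. *bta-miR-125b* can thus come from 2 of these clusters.

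The libraries held 991354 to 2778618 miRNA counts in EX and 3615234 to 12088735 in FC, and the 8 members took 0.444 to 1.10% of the counts of an EX library and 0.376 to 0.868% of an FC library. The values below are CPM-normalized counts, that is, counts scaled to the total assigned to miRNAs in a library. A count of 3, taken as the floor, equals 1.08 to 3.03 CPM in an EX library, and 0.248 to 0.83 CPM in an FC library. It covers counting error only, because reads copied from 1 molecule are not independent. The libraries at 30 months stood apart from the others: an EX library had a count for 258 to 296 miRNAs, against 381 to 446 at 20 and 25 months, and the median count of a detected miRNA was 144 to 297.5, against 51.7 to 90. In FC, 398 to 452 miRNAs had a count at 30 months, against 582 to 694 at the earlier ages. The part of this difference in the results at 30 months was not tested. Fewer vesicles or molecules of a miRNA and a larger amount of the other miRNAs cannot be told apart in such relative values.

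*bta-miR-125a* was the most abundant member by its mean in every group, and *bta-miR-99a-3p* the least abundant. Over the 9 EX libraries the mean of *bta-miR-125a* was 2402 ± 921 CPM (SD), which ranked 58 of the 1071 miRNAs, and in FC it was 2203 ± 1041 CPM, rank 56. *bta-miR-10b* followed with 1843 ± 754 CPM (EX) and 1581 ± 699 CPM (FC), and *bta-miR-125b* with 1384 ± 264 and 1159 ± 182 CPM. *bta-miR-10a* had 654 ± 433 and 543 ± 231 CPM, close to *bta-miR-99a-5p* with 528 ± 180 and 464 ± 144 CPM. *bta-miR-100* had 125 ± 73.3 and 107 ± 40.2 CPM, *bta-miR-99b* 73.3 ± 61.3 and 38.8 ± 18.6 CPM, and *bta-miR-99a-3p* 12.7 ± 12.1 and 19.2 ± 8.18 CPM. Neighbours in this order often overlapped: at 20 months in EX the ranges of *bta-miR-125a*, *bta-miR-125b* and *bta-miR-10b* ran into each other. At 30 months in FC, *bta-miR-100* and *bta-miR-99b* were the only neighbours that overlapped.

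**Figure D1:**
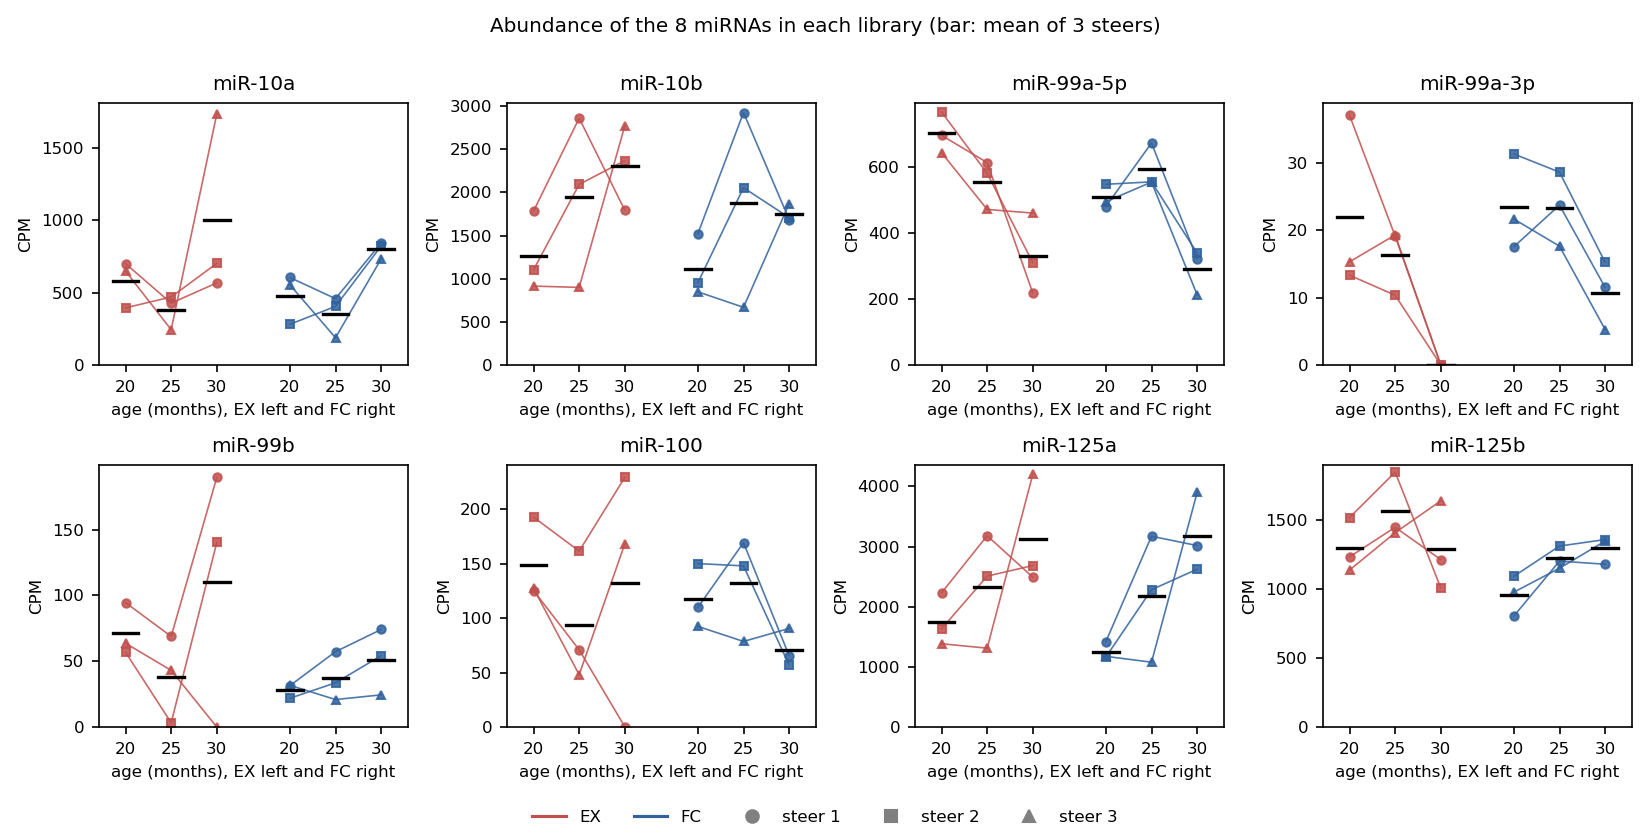
CPM-normalized counts (linear axis from 0) of each miRNA in the 18 libraries, by age in months, with EX in red on the left and FC in blue on the right of each panel. Symbols and thin lines follow the 3 steers, and black bars are means of 3 libraries. *miR-99a-5p* lies lower at 30 than at 20 months in all 3 steers of both fractions, *miR-99a-3p* is at 0 in the 3 EX libraries at 30 months, and *miR-10b* and *miR-125a* differ widely between steers at 25 months.

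The first question of the design is how the abundance changes with age within a fraction. A member was called changed at an FDR under 0.05 and an absolute log2 fold change above 1 in edgeR's quasi-likelihood test over all miRNAs of the fraction, with TMM normalization and with age and steer in the model. All 8 members passed the low-count filter in both fractions. From 20 to 25 months 0 of the 8 members were called in either fraction. Over all miRNAs, 1 of 345 in EX (0.29%) and 0 of 358 in FC (0%) were called. At an unadjusted p under 0.05 stood 0 members in EX and 2 in FC, beside 8 and 13 of all miRNAs, and the other tools called 0 members as well.

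From 25 to 30 months 1 of the 8 members was called in EX, lower, where 14.2% of all miRNAs tested were called. In FC 2 were called, 1 higher and 1 lower, where 15.6% of all were called. From 20 to 30 months 2 were called in EX, both lower, against 13.3% of all, and 1 in FC, higher, against 6.98% of all. The median log2 fold change of the members from 25 to 30 months was −0.24 in EX, beside −0.51 for all 345 miRNAs, and −0.01 in FC, beside −0.20 for all 358. From 20 to 30 months it was −0.15 in EX, beside −0.64, and 0.59 in FC, beside −0.12. In these medians *bta-miR-99a-3p* is the lowest of the members in EX, with its fitted value or at its bound given below.

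*bta-miR-99a-5p*, the main strand of the *miR-99a* hairpin, was lower at 30 months in both fractions. In EX, steers 1, 2 and 3 had 695, 766 and 643 CPM at 20 months, 613, 580.4 and 471 CPM at 25 months, and 218, 309.7 and 459.9 CPM at 30 months. All 3 values at 30 months lay below all 6 earlier ones, although steer 3 came close to its own value at 25 months. The log2 fold change was −1.26 (SE 0.33, FDR 0.0389) against 25 months and −1.49 (SE 0.33, FDR 0.0202) against 20 months. Scaling to library totals in place of TMM, which moved the median of all miRNAs by 0.44 and 0.34, left −0.79 (FDR 0.17) and −1.12 (FDR 0.0811). Both EX calls were also lost with limma on log2(CPM + 1) (FDR 0.232 and 0.129) or log2(CPM + 5) (FDR 0.221 and 0.119), and that against 25 months without the filter (FDR 0.0549). The limma fits use CPM without TMM factors, so scaling and tool change together in them. Steers 1, 2 and 3 had FC levels of 479.9, 547 and 495 CPM at 20 months, 672, 555 and 554 CPM at 25 months, and 321, 339 and 212 CPM at 30 months. Here the 3 libraries at 30 months were also the lowest of the 9. The log2 fold change was −1.18 (SE 0.27, FDR 0.0261) against 25 months, and −1.05 (FDR 0.0327) with library totals, and limma on log2(CPM + 1) did not call it (FDR 0.0533). Against 20 months it was −0.81 (SE 0.27) and was not called (FDR 0.0889). With 1 steer left out, the EX calls were lost for each of the 3 steers, with an FDR of 0.0897 to 0.224 against 25 months and of 0.0677 to 0.173 against 20 months, and the FC call was lost without steer 1 or steer 3 (FDR 0.0925 and 0.13).

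*bta-miR-99a-3p*, from the other strand of the same hairpin, was the only member with no count in any library of a group. In EX it had 37, 13.3 and 15.3 CPM at 20 months and 19.1, 10.3 and 19.3 CPM at 25 months. At 30 months all 3 EX libraries had 0 counts, and the floors there were 1.51, 3.03 and 2.77 CPM. Set against the mean of these floors, the mean at 20 months was 8.99 times and that at 25 months 6.67 times as high. These ratios bound the fall for counting error only, because 1 molecule can give many reads. The most common whole count of 3 or more was 89, 62 and 3 in steers 1, 2 and 3 in EX at 30 months. At 20 and 25 months in EX it was 9 to 26. Its part in the 0 counts was not tested. The fall was called against 20 months (FDR 0.0499) and not against 25 months (FDR 0.0516). The latter was called without the replicate block (FDR 0.0125), with the likelihood ratio test (FDR 0.000408), with DESeq2 (FDR 0.000571) and with both limma fits (FDR 0.00443 and 0.0173). The call against 20 months was lost with library totals (FDR 0.0626), with DESeq2 size factors (FDR 0.0538), without the filter (FDR 0.0971), with the read-sharing pairs summed (FDR 0.0558) and without any 1 of the steers (FDR 0.152 to 0.197). In FC, 17.5, 31.3 and 21.6 CPM at 20 months and 23.7, 28.6 and 17.6 CPM at 25 months were followed by 11.5, 15.2 and 5.26 CPM at 30 months. The 3 FC libraries at 30 months were again the lowest, with a log2 fold change of −1.32 (SE 0.49, FDR 0.0844) against 25 months and −1.18 (SE 0.49, FDR 0.149) against 20 months, neither called in edgeR's quasi-likelihood test. The likelihood ratio test and DESeq2 called the former (FDR 0.0478 and 0.0448). Of the 2 strands together, the 3p strand made up 4.38 ± 0.955% (SD, n = 3) in FC at 20 months, 3.80 ± 0.972% at 25 months and 3.39 ± 0.942% at 30 months. In EX the share was 3.03 ± 1.78% at 20 and 2.90 ± 1.10% at 25 months.

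*bta-miR-100*, which differs from *bta-miR-99a-5p* by 1 base, was not called at any age. In EX it had 125, 193 and 127 CPM at 20 months, 70.9, 161 and 48.0 CPM at 25 months, and 0.251, 229 and 168 CPM at 30 months. The first of the last 3 values is a divided read of steer 1, and with such a spread the SE was 1.37 to 1.53 on the log2 scale. In FC it had 109.7, 149.9 and 92.3 CPM, then 169, 148 and 78.5 CPM, and then 65.4, 56.8 and 90.5 CPM. The log2 fold change in FC from 25 to 30 months was −0.93 (SE 0.36, FDR 0.0972), with steer 3 moving slightly up. The counter divided reads between this pair in 6 libraries, in each of which the 2 counts were not whole but their sum was, within 0.05 counts. Summed, the pair had a log2 fold change from 25 to 30 months of −1.14 (SE 0.24, FDR 0.0172) in FC and −1.05 (SE 0.34, FDR 0.0727) in EX, and from 20 to 30 months of −1.26 (SE 0.34, FDR 0.0437) in EX and −0.81 (SE 0.24, FDR 0.0649) in FC. The 2 calls among these were lost with both limma fits and without steer 1 or steer 3. *bta-miR-99a-5p* made up 79.6 to 82.1% of the pair in FC by the group means, and 76.9 to 86.2% in EX.

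*bta-miR-99b*, the third miRNA with this seed, was not called at any age. In FC it had 31.4, 21.9 and 31.7 CPM at 20 months, 57.2, 33.6 and 20.9 CPM at 25 months, and 74.1, 54.2 and 24.5 CPM at 30 months, with a log2 fold change from 20 to 30 months of 0.74 (SE 0.42, FDR 0.272). Steers 1 and 2 were higher at each step in these values and steer 3 was not. In EX it had 94.5, 56.9 and 63.7 CPM, then 68.9, 3.27 and 43.1 CPM, and then 189.6, 140.2 and 0 CPM. EX libraries thus ran from 0 to the highest value of this miRNA within 1 age, and with an SE of 1.71 to 1.99 no change in EX was detectable. In 1 library the counts of *bta-miR-99b* and *bta-miR-99a-5p* were not whole while their sum was, within 0.05 counts.

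*bta-miR-10a*, the *miR-10* of the HOXB cluster, was higher at 30 than at 25 months. In FC, 604, 281 and 554 CPM at 20 months and 458, 404 and 188 CPM at 25 months were followed by 842, 822 and 732 CPM at 30 months, above all 6 earlier libraries. The log2 fold change from 25 to 30 months was 1.14 (SE 0.29, FDR 0.0299), and it was not called with library totals (1.23, FDR 0.0562), limma on log2(CPM + 1) (1.28, FDR 0.0758) or the count rows as deposited (1.11, FDR 0.0808), in which the lower rows of 4 FC libraries stood 1 row away from the CPM rows. Without steer 1 or steer 3 the FDR was 0.13 and 0.12. From 20 to 30 months it was 0.79 (SE 0.29, FDR 0.115). In EX, 699.7, 394 and 649 CPM, then 427, 469 and 244 CPM, were followed by 567, 702 and 1733 CPM, with a log2 fold change from 25 to 30 months of 0.82 (SE 0.43, FDR 0.229). All 3 steers were higher at 30 than at 25 months in EX too, but steer 3 alone was 7.11 times higher while steers 1 and 2 were 1.33 and 1.49 times higher.

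*bta-miR-10b*, the *miR-10* of the HOXD cluster, was the more abundant of the pair in all 18 libraries. In EX it had 1782, 1102 and 914 CPM at 20 months, 2859.9, 2093 and 899 CPM at 25 months, and 1793, 2368 and 2771.5 CPM at 30 months. In FC it had 1521, 953 and 848 CPM, then 2925, 2054 and 668 CPM, and then 1685, 1708 and 1869 CPM. Steer 1 was the highest and steer 3 the lowest at 25 months in both fractions, and in steer 3 the level then became 3.08 times higher in EX and 2.80 times higher in FC while in steer 1 it became 0.627 and 0.576 times the earlier one. The log2 fold change from 25 to 30 months was therefore near 0, −0.06 (SE 0.34) in EX and 0.02 (SE 0.33) in FC, and the sign in EX turned with library totals (0.41, FDR 0.564). From 20 to 30 months it was 0.62 (SE 0.34, FDR 0.28) in EX and 0.77 (SE 0.33, FDR 0.163) in FC, higher in 3 of 3 steers in each and not called.

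In 10 of the 18 libraries the counts of *bta-miR-10a* and *bta-miR-10b* were not whole while their sum was, within 0.05 counts, as when reads that match both are divided. The sum does not depend on that division. It was 1587 ± 474 CPM (SD, n = 3) at 20 months, 2233 ± 1279 CPM at 25 months and 2553 ± 42.2 CPM at 30 months in FC, with a log2 fold change from 25 to 30 months of 0.25 (SE 0.32, FDR 0.595). The call of *bta-miR-10a* in FC was thus not found in the summed pair. The share of *bta-miR-10a* in the pair was 30.2 ± 8.52% at 20 months, 17.3 ± 4.29% at 25 months and 31.3 ± 2.78% at 30 months in FC, and the 3 libraries at 25 months (13.5 to 22.0%) lay below all 3 at 20 (22.8 to 39.5%) and all 3 at 30 months (28.1 to 33.3%). In EX it was 32.0 ± 8.27%, 17.5 ± 4.22% and 28.4 ± 8.70%, again lowest at 25 months without overlap. These shares were described and not tested, and part of each rests on the divided reads.

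**Figure D2:**
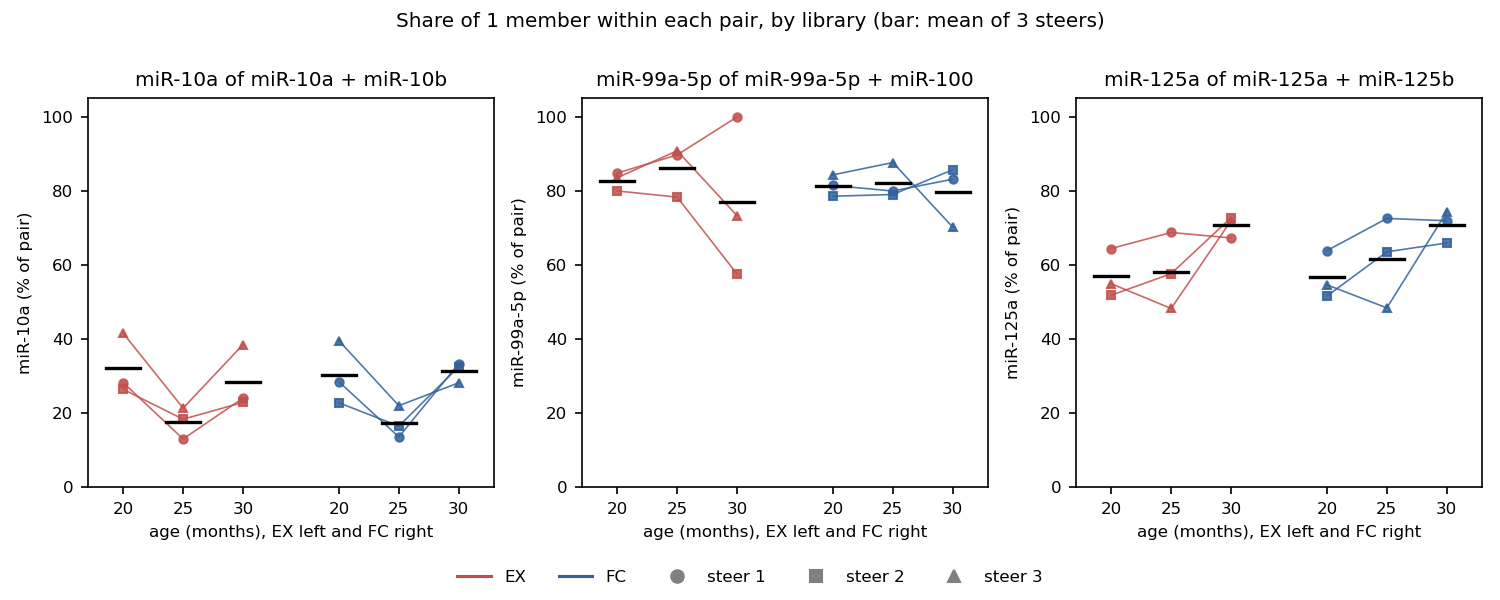
Share of 1 member, in percent of the summed CPM of its pair, in each library by age in months, with EX in red on the left and FC in blue on the right. Symbols are steers and black bars are means of 3. The share of *miR-10a* is lowest at 25 months in both fractions, *miR-99a-5p* stays the larger part of its pair in all 18 libraries, and the mean share of *miR-125a* goes from about 57% at 20 months to about 71% at 30 months.

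*bta-miR-125a* was higher at 30 than at 20 months. In FC it had 1419, 1163 and 1175.5 CPM at 20 months, 3171, 2282 and 1078 CPM at 25 months, and 3016, 2624 and 3899 CPM at 30 months. The groups at 20 and 30 months did not overlap, and the log2 fold change was 1.37 (SE 0.30, FDR 0.03), with a value of 1.37 (FDR 0.0495) also with library totals. Limma on log2(CPM + 1) (1.33, FDR 0.0885) and the count rows as deposited (1.34, FDR 0.0663) did not call it. Leaving out any 1 steer ended this call (FDR 0.068 to 0.142). From 20 to 25 months it was 0.83 (SE 0.30, unadjusted p in edgeR 0.0216, FDR 0.999), higher in steers 1 and 2 and slightly lower in steer 3. In EX, 2229.7, 1631 and 1385 CPM, then 3179.6, 2508 and 1311 CPM, were followed by 2490.4, 2684 and 4200.2 CPM. The log2 fold change in EX from 20 to 30 months was 0.52 (SE 0.32, FDR 0.324), higher in 3 of 3 steers and not called.

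*bta-miR-125b* kept a narrow range. In FC it had 805, 1093 and 978 CPM at 20 months, 1203, 1312 and 1152 CPM at 25 months, and 1180.3, 1359 and 1348 CPM at 30 months. On the CPM scale all 3 steers were higher at 25 and at 30 than at 20 months, by 1.18 to 1.49 times and by 1.24 to 1.47 times, and the log2 fold changes of 0.49 (SE 0.22, FDR 0.999) and 0.44 (SE 0.22, FDR 0.21) were not called. In EX it had 1233.5, 1518 and 1138 CPM, then 1448, 1848 and 1409 CPM, and then 1214, 1008 and 1640.2 CPM, with a log2 fold change from 25 to 30 months of −0.73 (SE 0.28, FDR 0.123), or −0.28 (FDR 0.564) with library totals. Within the *miR-125* pair, *bta-miR-125a* made up 57.0 ± 6.56% at 20 months and 70.6 ± 2.96% at 30 months in EX, and 56.6 ± 6.38% and 70.7 ± 4.34% in FC. This share does not depend on the scaling of a library. Counts of *bta-miR-125b* were not whole in 9 of the 18 libraries and those of *bta-miR-125a* in 0. This is as when *bta-miR-125b* reads are divided with a miRNA outside the pair, and its part in the share was not tested. The share of *bta-miR-125a* did not overlap between 20 and 30 months in either fraction (51.8 to 64.4% and 67.2 to 72.7% in EX, 51.5 to 63.8% and 65.9 to 74.3% in FC). At 25 months it ran from 48.2 to 68.7% in EX and from 48.3 to 72.5% in FC, which overlaps both other ages. The share was not tested.

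**Figure D3:**
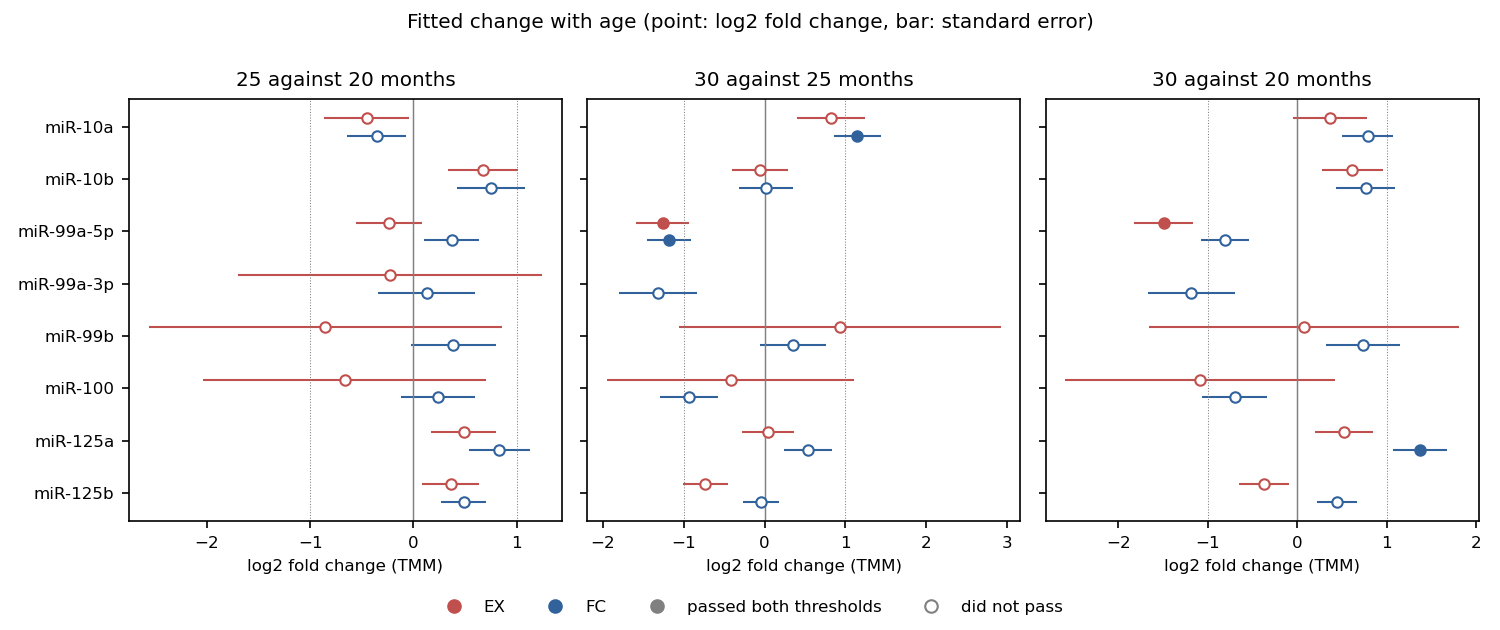
Fitted log2 fold change (horizontal axis, TMM scaling) with its standard error (bars) for each miRNA between ages, in EX (red) and FC (blue). Filled points passed an FDR under 0.05 and an absolute log2 fold change above 1, dotted lines stand at −1 and 1, and *miR-99a-3p* in EX at 30 months is not drawn because its libraries were at 0. *miR-99a-5p* is filled on the lower side in both fractions from 25 to 30 months, *miR-10a* and *miR-125a* are filled on the higher side in FC alone, and the EX bars of *miR-99b*, *miR-100* and *miR-99a-3p* are wide.

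The second question is whether a miRNA is richer in EX or in FC of the same plasma, and whether its change with age differs between the fractions. Here the plasma sample was the block, and an FDR under 0.05 was the threshold. At 20 months 1 of the 8 members was called, higher in EX, where 9.39% of the 330 miRNAs common to both fractions were called. At 25 months 0 were called, where 6.67% of all were called. The unadjusted p was under 0.05 for 1 member there, and DESeq2 called 1. At 30 months 3 were called, all lower in EX, where 27.6% of all were called, 78 lower and 13 higher. The change from 25 to 30 months differed between the fractions for 3 members, each toward a lower EX level, against 13.3% of all, 41 toward lower and 3 toward higher.

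For *bta-miR-125a*, the EX level was 1.57, 1.40 and 1.18 times the FC level of the same plasma in steers 1, 2 and 3 at 20 months, with a log2 difference of 0.48 (SE 0.11, FDR 0.0249). At 25 months it was 1.00, 1.10 and 1.22 times, with a log2 difference of 0.22 (SE 0.11, FDR 0.407). At 30 months it was 0.826, 1.02 and 1.08 times, and the TMM-scaled log2 difference was −0.50 (SE 0.11, FDR 0.00915). The sign at 30 months on the CPM scale was thus mixed between steers. The TMM factors at this age were 1.21 to 1.30 in EX and 0.914 to 0.956 in FC, which places EX lower, and with library totals, which moved the median of all miRNAs by 0.43, the difference was −0.07 (FDR 0.695). With DESeq2 size factors it was −0.24 (FDR 0.109). The difference between the fractions in the change from 25 to 30 months was −0.72 (SE 0.16, FDR 0.0191), and −0.20 (FDR 0.486) with library totals. Without the plasma block, the difference at 20 months was 0.50 (FDR 0.773) and that at 30 months −0.47 (FDR 0.3). All 3 calls of this miRNA were lost without steer 1 (FDR 0.291, 0.328 and 0.256 in the order given) or without steer 2 (FDR 0.248, 0.0951 and 0.12).

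*bta-miR-125b* stood likewise. The EX level was 1.53, 1.39 and 1.16 times the FC level at 20 months, with a log2 difference of 0.46 (SE 0.16, FDR 0.113), and 1.204, 1.41 and 1.22 times at 25 months, with 0.43 (SE 0.15, FDR 0.189). It was 1.03, 0.741 and 1.22 times at 30 months, with a TMM-scaled log2 difference of −0.49 (SE 0.16, FDR 0.0463) that became −0.06 (FDR 0.817) with library totals. This call was also lost without the plasma block (FDR 0.291), with steer as the block (FDR 0.22), with DESeq2 (FDR 0.265) or its size factors (FDR 0.276) and with the filter in either fraction (FDR 0.0578). EX was thus the higher fraction in all 6 plasma samples at 20 and 25 months, without a call in edgeR, while DESeq2 called it at both ages (0.48, FDR 0.0162, and 0.46, FDR 0.0448). The change from 25 to 30 months differed between the fractions by −0.91 (SE 0.22, FDR 0.025), and by −0.40 (FDR 0.27) with library totals. It was not called without the plasma block (FDR 0.214), with steer as the block (FDR 0.158) or with DESeq2 size factors (FDR 0.0745). Both calls were lost without any 1 of the steers, with an FDR of 0.0509 to 0.282 and of 0.0634 to 0.175. The median of all 330 miRNAs at 30 months was −0.74 on the TMM scale, further from 0 than both members.

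**Figure D4:**
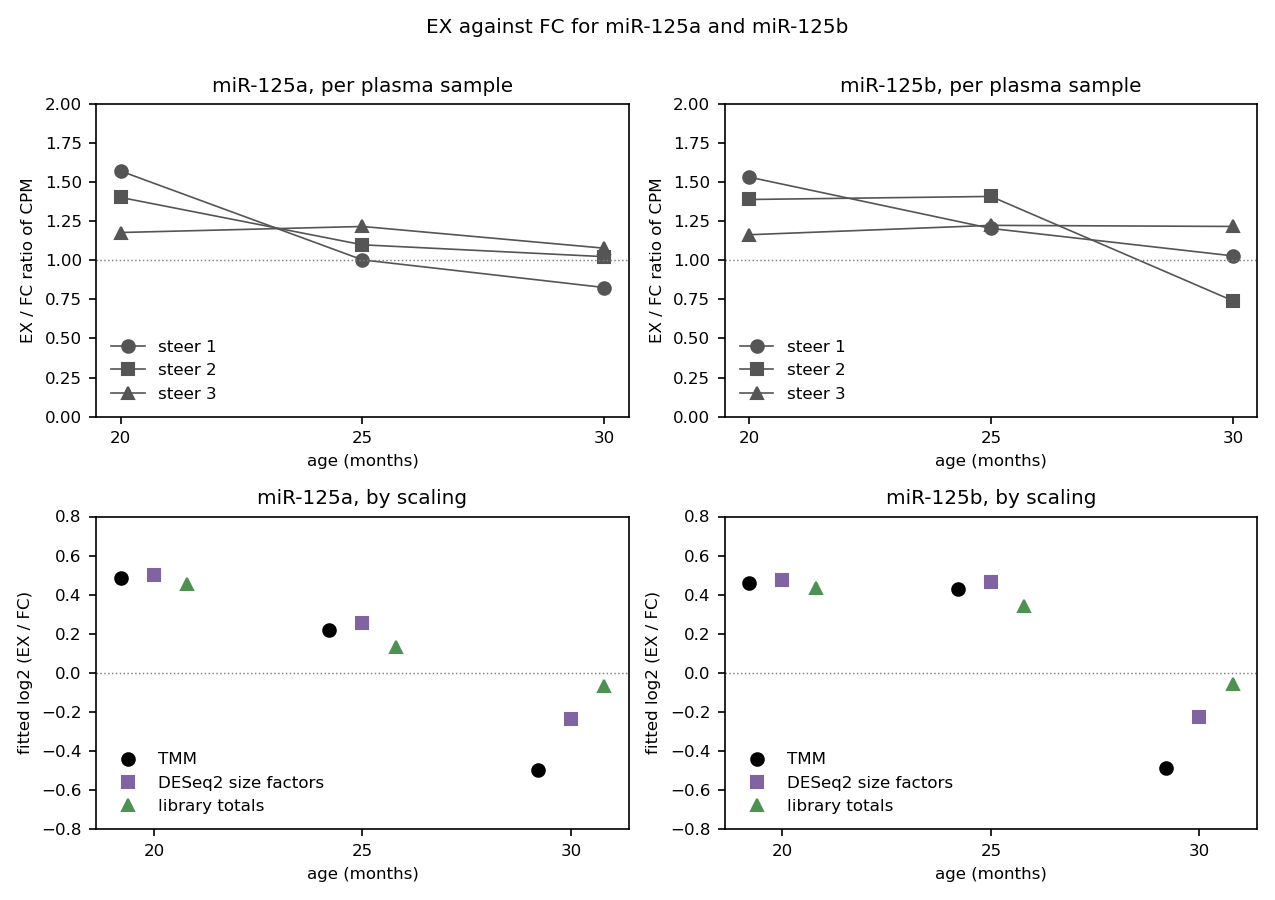
Top, ratio of EX to FC CPM-normalized counts (linear axis from 0, dotted line at 1) per plasma sample at each age for *miR-125a* and *miR-125b*. Bottom, the fitted log2 difference between EX and FC at each age with 3 scalings of the libraries. The scalings lie close at 20 months, and at 30 months they spread from about −0.5 with TMM to about −0.1 with library totals.

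*bta-miR-99a-3p* was the remaining member called at 30 months (FDR 0.00582). It was at 0 in the 3 EX libraries while the FC libraries of the same plasma had 11.5, 15.2 and 5.26 CPM. Their mean was 4.38 times the mean EX floor, which covers counting error only. This call held in the 7 alternatives of scaling, block, test and filter, with an FDR of at most 0.0087, and with library totals its FDR was 0.00826. It was lost without steer 1 (FDR 0.0674). The FC libraries of that age were deeper, with 3615234 to 4871908 counts against 991354 to 1988408. The difference between the fractions in its change from 25 to 30 months was called too (FDR 0.027), and lost without any 1 of the steers (FDR 0.0807 to 0.186). At 20 months the EX level was 2.11, 0.426 and 0.707 times the FC level, with no direction common to the steers.

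The other 5 members were not called between fractions at any age with all 3 steers, apart from *bta-miR-99b* with the count rows as deposited, given below. *bta-miR-99b* was higher in EX in 3 of 3 plasma samples at 20 months, by 3.01, 2.60 and 2.01 times, with a log2 difference of 1.35 (SE 1.21, FDR 0.786). *bta-miR-99a-5p* was higher in EX in 3 of 3 at 20 months, by 1.45, 1.40 and 1.30 times (log2 difference 0.49, SE 0.27, FDR 0.446), and in 1 of 3 at 25 and at 30 months. *bta-miR-100* was higher in EX in 3 of 3 at 20 months, by 1.14, 1.28 and 1.38 times, and at 30 months its EX level was 0.00385, 4.03 and 1.86 times the FC level, the first from the divided read of steer 1 (log2 differences 0.36, SE 1.15, and −0.57, SE 1.54). *bta-miR-10b* was within 0.978 to 1.48 times of the FC level in all 9 plasma samples, and at 30 months its log2 difference turned from −0.08 (SE 0.13) to 0.35 (FDR 0.0653) with library totals. The sign for *bta-miR-10a* and *bta-miR-99a-5p* at 30 months turned too, from −0.32 each to 0.11 each. Without steer 3 both were called lower in EX at that age (−0.88, FDR 0.0412, and −0.83, FDR 0.042), and without steer 1 they were at 0.21 and 0.20, without a call.

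The clusters' other miRNAs were taken from a list of 7, of which 5 passed the filter. Their calls are those of edgeR's quasi-likelihood test with TMM, without other settings or left-out steers. Counts of *bta-let-7e*, *bta-let-7c* and *bta-let-7a-5p* were not whole, as when reads are divided between miRNAs. For *bta-let-7e* they were 246.6, 243.43 and 119.45 in EX at 20 months. The levels and changes of these *let-7* miRNAs rest in part on that division, which was not tested. *bta-let-7e*, which stands beside *bta-miR-99b* and *bta-miR-125a*, rose in EX from 20 to 30 months with a log2 fold change of 2.20 (SE 0.45, FDR 0.0144). Its EX libraries had 120.2, 87.6 and 58.9 CPM at 20 months, 300.0, 209 and 131 CPM at 25 months, and 489, 403 and 609 CPM at 30 months, higher in 3 of 3 steers at each step. In FC it stayed at 52.6 to 208 CPM over all 9 libraries, and at 30 months it was higher in EX by 1.83 (SE 0.32, FDR 0.00277). Its log2 fold change in FC from 20 to 30 months was 0.32 (SE 0.53, FDR 0.701), beside the 1.37 of its cluster neighbour *bta-miR-125a*. *bta-let-7c*, which stands beside *bta-miR-99a*, was not called: its log2 fold change from 25 to 30 months was −1.01 (SE 0.34, FDR 0.0691) in FC and −0.35 (SE 0.23, FDR 0.348) in EX. *bta-miR-196b*, a HOX cluster miRNA, rose in FC from 25 to 30 months by 1.58 (SE 0.46, FDR 0.044), from 23.1, 14.7 and 9.76 CPM to 36.9, 50.6 and 58.0 CPM. At 20 months it had 42.6, 15.5 and 38.3 CPM in FC, and the change from 20 to 30 months was not called (0.72, SE 0.45, FDR 0.32). In EX its log2 fold change from 25 to 30 months was −1.94 (SE 2.98, FDR 0.751), with 2 of 3 libraries at 0 at 30 months.

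Across the 18 libraries, on the log2 CPM scale with TMM factors, *bta-miR-10b* and *bta-miR-125a* had the highest correlation among the members (Pearson r = 0.86, 0.94 within the 9 EX and 0.85 within the 9 FC libraries), while *bta-miR-10a* and *bta-miR-10b*, which share a seed and reads, had r = 0.34. *bta-miR-99a-5p* had r = 0.74 with its opposite strand (0.88 within EX and 0.91 within FC, the highest of the FC values) and r = 0.59 with *bta-miR-100*, and in FC it ran against *bta-miR-10a* (r = −0.87). *bta-miR-125a* and *bta-miR-125b* had r = 0.38. Among 322 other miRNAs, the patterns most like the *miR-10* sum were those of *bta-miR-429* (r = 0.79), *bta-miR-3432a* (0.77) and *bta-miR-27a-3p* (0.75, with 0.48 within EX and 0.94 within FC). Those most like the sum of *bta-miR-99a-5p* and *bta-miR-100* were *bta-miR-2285bf* (0.85), *bta-miR-181a* (0.83) and *bta-miR-342* (0.81), and those most like the *miR-125* sum were *bta-miR-1468* (0.85), *bta-miR-126-5p* (0.72) and *bta-miR-200a* (0.64, with 0.15 within EX and 0.86 within FC). These values are descriptions: the libraries share steers, plasma samples and the age step, and depth differs with age and fraction.

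Markers of other sources moved at the same ages. The 2 lymphocyte miRNAs *bta-miR-150* and *bta-miR-342* summed to 113415 to 324692 CPM in the EX libraries at 20 and 25 months and to 13723 to 27464 CPM at 30 months. The same sum in FC was 79355 to 230827 CPM at the earlier ages, and 14651 to 26926 CPM at 30 months. Both were above 0 in all 18 libraries. They were lower at the age at which *bta-miR-99a-5p* was lower, and their part in that result was not tested. The 3 red cell miRNAs summed to 10720.2 to 92244 CPM, the 3 of myeloid cells and platelets to 18909 to 73366 CPM, and the 2 of liver to 12268 to 121582 CPM, with overlapping ranges at the 3 ages within each fraction. *bta-miR-885*, of the liver pair, was at 0 in 2 of the 3 libraries of each fraction at 30 months. The 3 muscle miRNAs summed to 37.5 to 468 CPM, and at 30 months *bta-miR-133a* was at 0 in 2 and *bta-miR-206* in 1 of the 3 EX libraries. Of the 13 markers, *bta-miR-150*, *bta-miR-342* and *bta-miR-451* were called lower in EX from 25 to 30 and from 20 to 30 months. *bta-miR-150* and *bta-miR-885* were called lower in FC in both contrasts, and *bta-miR-342* there from 25 to 30 months. *bta-miR-126-3p*, of the myeloid and platelet list, was called higher in EX from 20 to 30 months (log2 fold change 1.36, SE 0.28, FDR 0.0149), with a mean of 5817 ± 2766 CPM (SD, n = 3) at 20 and 18000.2 ± 4222 CPM at 30 months. The others of that list were not called in this contrast: *bta-miR-223* was at −0.73 (FDR 0.323) and *bta-miR-126-5p* at 0.78 (FDR 0.21).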

How the data were processed

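Small RNA-seq reads of 18 libraries were trimmed (cutadapt 5.0 and Trimmomatic 0.39 in the submitters' processing notes, with FastQC 0.12.1 and edgeR 4.0.16), mapped to a resequenced Japanese Black genome and assigned to mature miRNAs by the authors. They deposited estimated counts, in which a read shared by miRNAs is divided, and CPM-normalized values of another table, in which counts are scaled to the library total. In 4 FC libraries, steer 3 at 25 months and all at 30 months, the lower deposited count rows stood 1 row away from the CPM rows. For these miRNAs (*bta-miR-99a-5p*, *bta-miR-99a-3p* and *bta-miR-99b* among them) counts were recomputed from CPM. The CPM rows correlated with 20 months libraries at 0.869 to 0.974, the count rows at 0.0833 to 0.176.

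A miRNA was tested in a fraction where 3 or more of its 9 libraries exceeded 5 CPM. Rounded counts with TMM factors entered edgeR's quasi-likelihood test (R 4.3.3), with age and steer within a fraction, or with plasma sample and fraction within age for 18 libraries. The FDR is Benjamini-Hochberg over all miRNAs tested, and the SE is the log2 fold change over the square root of F. The titles give replicate numbers only, and a number is taken as the same steer across ages because the study lists the same 3 steers. Deviations from the mean of each age correlated between libraries of the same number at a mean of 0.0251 in EX (lowest −0.0483) and 0.113 in FC. For other numbers the means were −0.0126 and −0.0568. Taking deviations ties these means to the former, so the contrast does not test the pairing. No replicate pair was a copy (chi-square per degree of freedom at least 196). The tests were tried on simulated data. DESeq2 1.42.0 and limma 3.58.1 (on CPM without TMM factors) gave alternatives, and Python 3.11.15 (numpy 2.4.6, pandas 2.3.3, matplotlib 3.10.9) the tables and figures.

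The members, lists and tests were chosen with earlier results of these data known. All 8 members were tested in every comparison. The rule for named miRNAs took the members, partners where called or beside a member, and the 3 miRNAs most alike by Pearson correlation. Gene neighbours are from the RefSeq table of ARS-UCD2.0, whose coordinates were not used. qPCR and carcass records were not analysed here.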

Additional observations from a re-analysis of the deposited data

Results flagged for a closer look

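For 3 members the test of the difference itself found unequal changes in EX and FC from 25 to 30 months: *bta-miR-99a-3p* (FDR 0.027), *bta-miR-125a* (FDR 0.0191) and *bta-miR-125b* (FDR 0.025), each toward a lower EX level. Over all miRNAs 13.3% were called for this difference, 41 toward a lower and 3 toward a higher EX level, with a median of −0.61. The call for *bta-miR-99a-3p* was lost without any 1 of the steers (FDR 0.0807 to 0.186), that for *bta-miR-125b* likewise (FDR 0.0634 to 0.175), and that for *bta-miR-125a* without steer 1 or steer 2 (FDR 0.256 and 0.12). With library totals in place of TMM the FDR was 0.0411 for *bta-miR-99a-3p*, 0.486 for *bta-miR-125a* and 0.27 for *bta-miR-125b*. The calls for *bta-miR-125a* and *bta-miR-125b* were also lost without the plasma block (FDR 0.434 and 0.214), with steer as the block (FDR 0.444 and 0.158) and with DESeq2 size factors (FDR 0.0703 and 0.0745), and each was kept in 3 of 8 alternatives.

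From 20 to 25 months, *bta-miR-99a-5p* moved in opposite directions in the 2 fractions of the same plasma in 3 of 3 steers on the CPM scale: to 0.882, 0.758 and 0.733 times the earlier level in EX, and to 1.40, 1.01 and 1.12 times in FC. After division by the TMM factors, the 2 fractions moved in the same direction in each steer. Both were then higher at 25 months in steers 1 and 3, and lower in steer 2. The opposite directions thus depended on the scaling, and the difference between the fractions was not tested. Neither change alone was called (log2 fold change −0.23, SE 0.32, in EX and 0.37, SE 0.27, in FC).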

How the results depend on the processing

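The members called changed with the setting as follows, where it was by over 1.5 times. In EX from 25 to 30 months, 1 member was called, against 2 without the replicate block, with the likelihood ratio test or with DESeq2, and 0 with library totals or no filter. In EX from 20 to 30 months, 2 were called, against 1 with DESeq2 size factors, no filter or limma on log2(CPM + 1) or log2(CPM + 5), and 0 with library totals. In FC from 25 to 30 months, 2 were called, against 1 with library totals and 0 with limma on log2(CPM + 1) or the count rows as deposited. In FC from 20 to 30 months, 1 was called, against 0 with that limma fit or those rows. Between EX and FC at 20 months, 1 was called, against 0 without the replicate block or with steer as the block, and 2 with DESeq2, and at 25 months 0, against 1 with DESeq2. At 30 months 3 were called, against 1 without the replicate block, with steer as the block, with DESeq2, its size factors or library totals. For the difference between the fractions, 3 were called, against 1 without the replicate block, with steer as the block, DESeq2 size factors, library totals or the rows as deposited. Of the summed pairs 2 were called, against 1 with library totals, no filter or the rows as deposited, and 0 with both limma fits. Both limma fits kept the count of 1 in EX from 25 to 30 months but called *bta-miR-99a-3p* in place of *bta-miR-99a-5p*. The cause was not tested.

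With 1 steer left out the counts ran from 0 to 0 in both EX contrasts with 30 months and in FC from 20 to 30 months, from 0 to 2 in FC from 25 to 30 months, from 0 to 1 between fractions at 20 months, from 0 to 4 at 30 months, and from 0 to 1 for the difference and for the summed pairs. Fewer samples enter these fits.

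With the count rows as deposited, *bta-miR-99b* between EX and FC at 30 months turned from −0.49 to 11.87 on the log2 scale (FDR 0.0298), because its FC values then come from another row. Of 80 member results, 60 were called under no setting. Among the values of the others, 139 kept their side of the threshold, 3 of them with the other sign (*bta-miR-99b* between EX and FC at 30 months), and 75 lost and 11 gained the call. A further 6 uncalled values turned sign. Counted over all 80 results, with these included, 81 values without a call in either setting had the other sign. Over all miRNAs and with all steers, the calls from 25 to 30 months ranged from 37 to 90 in EX (49 in the report) and from 10 to 80 in FC (56), and those between fractions at 30 months from 64 to 151 (91), and with 1 steer left out they were 0 to 18, 1 to 54 and 41 to 64. In EX at 30 months, *bta-miR-99a-3p* was at 0 counts in 3 libraries and *bta-miR-99b* in 1, and *bta-miR-100* had 0.5 counts in 1, all under the floor of 3 counts.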

Other observations

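The remaining cluster partners gave no call. *bta-let-7a-5p*, which stands beside *bta-miR-100*, had 4385 ± 835 CPM (SD, n = 9) in EX and 4008 ± 1215 CPM in FC, above every member. Its log2 fold change from 25 to 30 months was −0.51 (SE 0.33, FDR 0.35) in EX and −0.90 (SE 0.32, FDR 0.075) in FC. Its other strand, *bta-let-7a-3p*, had 15.5 ± 14.2 CPM in EX, with 2 of the 3 libraries at 30 months at 0, and 16.3 ± 5.02 CPM in FC.

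Of the HOX cluster miRNAs listed, *bta-miR-196a* and *bta-miR-615* passed the filter in neither fraction. *bta-miR-196a* had 1.90 ± 3.03 CPM in EX, with 6 of 9 libraries at 0, and 3.42 ± 2.65 CPM in FC. *bta-miR-615* was at 0 in 9 of 9 EX libraries and in 6 of 9 FC libraries.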
